A study of Mus musculus with 6 samples.

Results

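The genes described here copy the genome in S phase, or are switched on with it by E2F transcription factors. They were chosen by name: 41 genes of origin licensing, the MCM helicase, polymerases, nucleotide supply, chromatin assembly and the E2F and cyclin E families. Of these, 39 had a row in the deposited table of 21515 genes; Cdt1 and Gins2 were not analysed here. The RNA came from C57BL/6 mouse bone marrow cells immortalised with NUP98-NSD1, a leukaemia fusion of a nuclear pore protein and a histone methyltransferase, together with NRASG12D, an activated RAS protein. Knockout cells had received a Cas9 lentivirus with the T44 guide against Clec12a. This gene encodes a C-type lectin on myeloid cells that dampens their activation. Control cells had received the same kind of virus with a guide against the bacterial gene lacZ. The fusion, the RAS mutant, Cas9 and the dTomato reporter of the virus were thus common to both groups. Cells were sorted singly and expanded, and it is not stated whether each library is 1 clone, so differences between clones and between guides cannot be told apart. Both groups were stimulated for 48 hours with 3 cytokines in 15% serum, namely 10 ng/mL of human IL-6, 6 ng/mL of mouse IL-3 and 20 ng/mL of mouse SCF. There were 3 Clec12a knockout libraries (replicates 1, 4 and 5) and 3 lacZ control libraries (replicates 6, 8 and 9).

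In a normal cell cycle, the origin recognition complex with Cdc6 and Cdt1 loads the ring of MCM proteins onto DNA in G1. Cyclin E with its kinase Cdk2 and other kinases then start S phase, when Cdc45 and the GINS complex join the ring and switch it on as a helicase. E2F factors, held back by RB proteins until cyclin-dependent kinases act, drive most of these genes, and E2f8 and E2f7 later shut them off again. In cultured myeloid progenitors, the level of this programme follows how many cells are dividing, and it is lost as neutrophils mature.

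Levels are in FPKM, which divides a gene's fragments by its transcript length and by the size of the library. Fold changes are knockout minus control on the scale of log2(FPKM + 1). Estimated depth ran from 33500000 to 50900000 fragments in knockout libraries and from 45300000 to 60700000 in control libraries. The sum of all FPKM was 590211 to 699113 in knockout and 534440 to 554534 in control libraries, so it went with the guide. Clec12a itself was at 170, 129 and 94.5 FPKM in knockout and at 157, 246 and 280 FPKM in control libraries. These values overlapped (exact two-sided permutation p = 0.2, where 0.1 is the smallest that 3 against 3 allow), and since a small edit need not lower a gene's FPKM, they do not check the labels. All 3 leukocyte markers, Ptprc, Spi1 and Itgam, were at 1 FPKM or more in every library, while all 3 B and all 3 T lymphocyte markers were below 1 FPKM in every library. The progenitor marker Cd34 was at most 0.0969 FPKM in knockout and at most 0.127 FPKM in control libraries. Of 9 tested markers of mature neutrophils, which do not divide, 3 rose (Ly6g, Retnlg and Lcn2), against 1.38% of all tested genes. The others did not pass: Mmp8 and Ltf were lower (log2 fold change -0.49 each), and Mmp9, Cxcr2, S100a8 and S100a9 were higher (0.19 to 1.10). The summed FPKM of all 10 mature neutrophil markers ran from 2165 to 3143 in knockout and from 1040 to 5442 in control libraries. The 7 monocyte and macrophage markers, of which 3 were tested and none passed, summed to 91.6 to 177 FPKM in knockout and to 253 to 659 FPKM in control libraries, with Ccr2 the highest of them in every library. The 8 measured myeloid progenitor markers summed to 3369 to 8466 FPKM in knockout and to 1970 to 6776 FPKM in control libraries, mostly through the granule protease genes Elane, Prtn3 and Ctsg. Mpo, the myeloperoxidase gene, was at 0.289, 1.202 and 9.36 FPKM in knockout and at 455, 737 and 10.2 FPKM in control libraries. It had no overlap and the lowest log2 fold change of all tested genes, -5.66 (adjusted p = 0.0763). Ms4a3 was at -2.20 (adjusted p = 0.132). Kit was at -1.31 and Ctsg at -0.14, while Elane was at 0.89 and Prtn3 at 0.24. None of the 6 tested progenitor markers passed. The part of cell type and maturity in the results below was not tested.

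Replication and E2F target genes were mostly lower in knockout cells, by modest amounts. A gene is said to have risen or fallen only at an adjusted p under 0.05 (limma, Benjamini-Hochberg over all 9830 genes tested). Of 38 members tested, 1 fell, the cyclin gene Ccne2, none rose, and 37 did not pass. Over all tested genes 1.9% were called, 0.519% having fallen and 1.38% having risen. By sign, 33 of 38 members had lower and 5 had higher values in knockout cells, against 54% lower among all tested genes. For 22 of 38 members, every knockout library lay below every control library, which held for 21.8% of all tested genes, and for none did every knockout library lie above, which held for 14.5% (36.3% in either direction). The median log2 fold change was -0.44 over the members and -0.06 over all tested genes. At an unadjusted p under 0.05, 17 members were lower and none higher, against 15.9% lower and 12% higher of all tested genes. By role, the median log2 fold change was -0.73 over the 4 tested E2F and cyclin E genes, -0.60 over the 6 MCM genes, -0.58 over the 4 chromatin genes and -0.56 over the 3 licensing genes. It was -0.40 over the 4 polymerase and primase genes, -0.35 over the 4 helicase activation genes, -0.35 over the 6 nucleotide genes and -0.22 over the 7 clamp, loader and Okazaki genes. In bulk RNA, fewer cells in S phase and less of these RNAs per cell cannot be told apart.

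**Figure D1:**
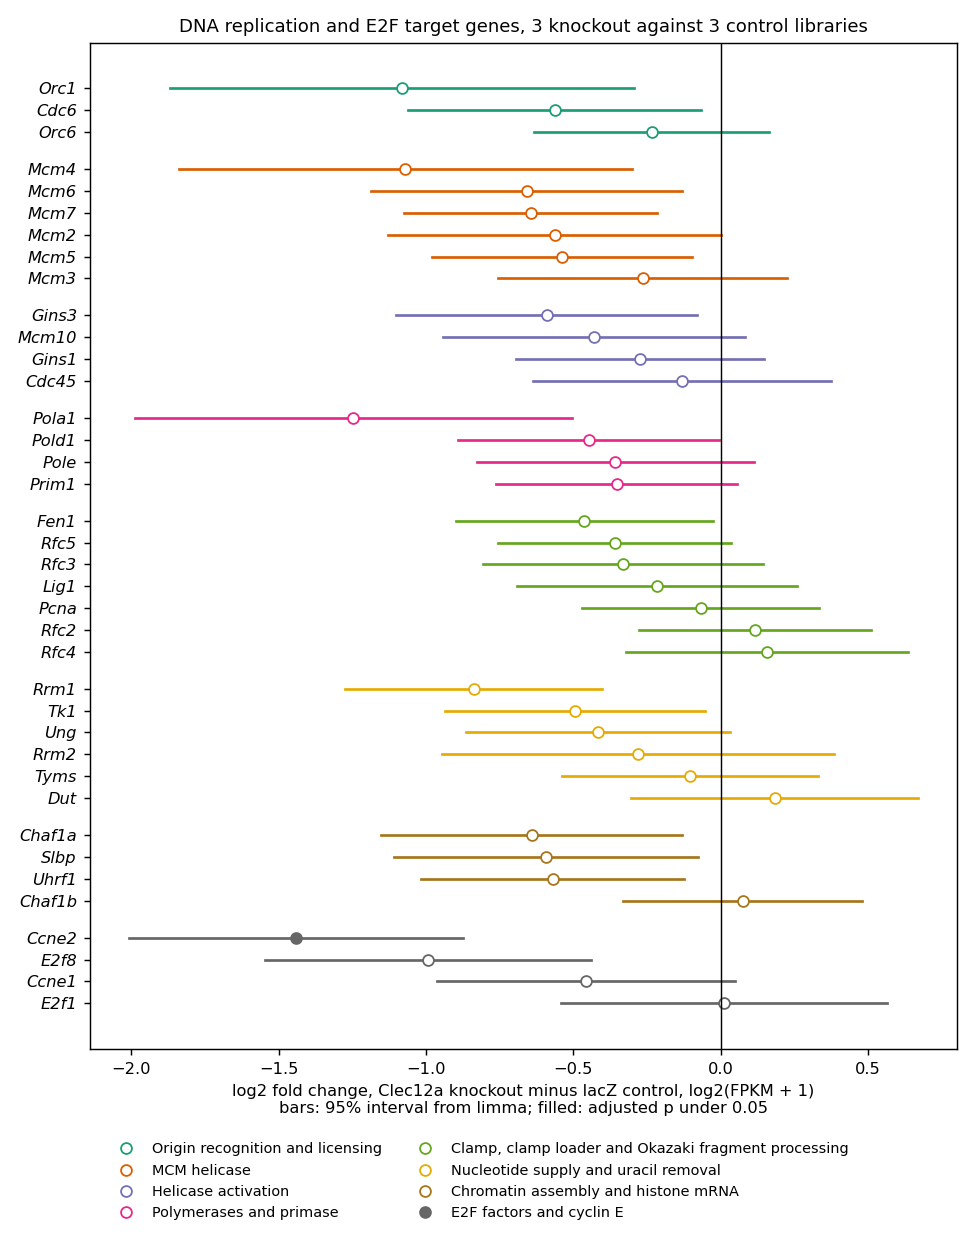
Log2 fold change (horizontal axis, knockout minus control, log2(FPKM + 1)) of the 38 tested members, grouped by role, with 95% intervals from limma. Points for 33 of 38 members lie left of 0, and Ccne2 at -1.44 is the only filled point, with an adjusted p under 0.05.

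The libraries did not all sit at the same level within a group. The median deviation of the members from their gene means, on the log2 scale, came to -0.09, -0.24 and -0.26 in the knockout libraries (replicates 1, 4 and 5). The control libraries (replicates 6, 8 and 9) had 0.37, 0.21 and 0.08. The groups did not overlap in this median, knockout replicate 1 and control replicate 9 being nearest to each other. Over all tested genes, the same medians ran from -0.05 to 0.02 in knockout and from 0.01 to 0.05 in control libraries. Knockout replicates 4 and 5 each held the lowest of all 6 values for 16 of 38 members. Among the 3 knockout libraries alone, replicate 4 was the lowest for 42.1% of members, near its 43.8% of all tested genes. Replicate 5 was the lowest for 50% of members, against 36.6% of all tested genes. Control replicate 9 was the lowest control for 28 of 38 members (73.7%), against 46.4% of all tested genes. Replicate 4 was the more uneven knockout library: it also held the highest of all 6 values for 5 members, Pcna, Rfc2, Rfc4, Lig1 and Dut.

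**Figure D2:**
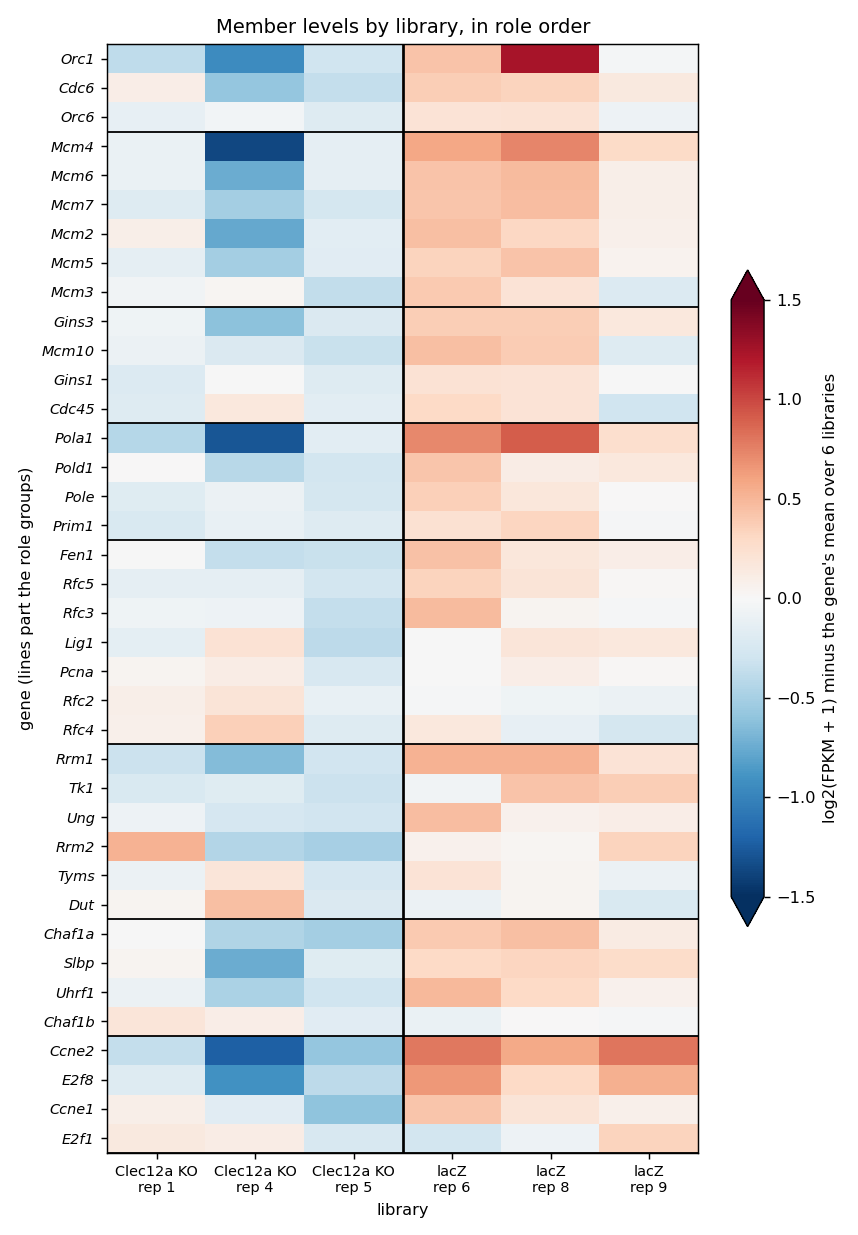
Level of each tested member (rows, in role order) in each library (columns, knockout left of the thick line), as log2(FPKM + 1) minus the gene's mean over 6 libraries; colours stop at the ends of the scale. Knockout replicate 4 is darkest blue for Mcm4, Pola1 and Ccne2, while Dut is red in the same column.

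The promoters of the members hold the E2F motif more often than promoters at large. RefSeq promoters (GRCm38.p6, 250 bases before to 50 after the gene's start) were given for 35 of the 41 members; Mcm4, Gins1, Gins2, Rfc2, Ccne2 and Pole had none. The motif TTTNNCGC, searched on both strands and with N for any base, was found in 15 of 35 members (42.9%), against 10.3% of 7917 tested genes with a promoter and 1 of 22 genes (4.55%) of a list of G2 and mitosis genes. The CHR motif TTTGAA, known from promoters of mitotic genes, was found in 6 of 35 members (17.1%), against 14.7% of tested genes and 17 of 22 (77.3%) G2 and mitosis genes. A CCAAT box was found in 21 of 35 members (60%), against 44% of tested genes. Among tested members, the 13 with the E2F motif had a median log2 fold change of -0.56 and all 13 were lower, and the 20 without it had a median of -0.39 with 16 lower. The other motifs split the members likewise: the 20 with a CCAAT box had a median of -0.57 with 20 lower, and the 13 without it -0.36 with 9 lower. The 5 with the CHR motif had a median of -0.56 with 5 lower, and the 28 without it -0.42 with 24 lower. The members were named partly as E2F targets, so no test was made of these shares. A match is a run of letters and shows no binding.

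The 160 bases before the RefSeq start (GRCm38.p6) are shown for 4 members with the motif within them, from the MCM, licensing and polymerase genes, and for E2f8 and Rrm1, which had no match there and whose adjusted p was under 0.1. Capitals mark TTTNNCGC or its reverse complement. In Mcm6 and Mcm5 the longer capital run is a pair of overlapping matches on opposite strands. The stretches lie upstream of the annotated gene, except that of Cdc6, which lies in an intron of the GENCODE model.
Mcm6 (chr1:128359706-128359865, minus strand): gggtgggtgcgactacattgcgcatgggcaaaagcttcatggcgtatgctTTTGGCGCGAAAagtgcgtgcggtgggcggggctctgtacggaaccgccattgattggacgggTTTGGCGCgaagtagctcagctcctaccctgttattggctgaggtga
Mcm5 (chr8:75109349-75109508, plus strand): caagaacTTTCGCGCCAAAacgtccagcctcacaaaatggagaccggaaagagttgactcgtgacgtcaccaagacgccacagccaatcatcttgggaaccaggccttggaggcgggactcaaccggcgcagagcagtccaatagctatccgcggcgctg
Cdc6 (chr11:98907991-98908150, plus strand): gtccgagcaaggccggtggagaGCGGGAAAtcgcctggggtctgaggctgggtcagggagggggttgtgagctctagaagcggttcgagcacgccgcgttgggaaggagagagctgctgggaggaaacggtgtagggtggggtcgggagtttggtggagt
Pola1 (chrX:93632156-93632315, minus strand): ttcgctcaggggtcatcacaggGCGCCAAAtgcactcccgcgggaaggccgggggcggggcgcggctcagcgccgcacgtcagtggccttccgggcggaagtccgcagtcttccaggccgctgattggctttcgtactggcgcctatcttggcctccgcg
E2f8 (chr7:48881597-48881756, minus strand): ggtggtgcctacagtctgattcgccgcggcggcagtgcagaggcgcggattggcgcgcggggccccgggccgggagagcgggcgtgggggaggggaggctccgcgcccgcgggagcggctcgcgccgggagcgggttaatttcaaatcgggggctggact
Rrm1 (chr7:102441535-102441694, plus strand): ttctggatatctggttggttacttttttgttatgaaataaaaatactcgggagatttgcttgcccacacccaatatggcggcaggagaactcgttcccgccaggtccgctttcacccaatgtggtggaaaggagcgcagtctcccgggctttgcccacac

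Origin licensing genes were all lower in knockout cells, and Orc1 by the most. Orc1, the largest subunit of the origin recognition complex, was at 4.84, 2.96 and 5.22 FPKM in knockout and at 9.23, 16.9 and 6.45 FPKM in control libraries. All knockout values lay below all control values, but the controls spread widely. The log2 fold change was -1.08 (SE 0.35), with an adjusted p of 0.105. Of the exon bases of Orc1, 10.8% are shared with Gm12743 on the opposite strand. Orc6, a small subunit of the same complex, was at 48.9, 51.8 and 46.3 FPKM in knockout and at 61.7, 62.0 and 50.5 FPKM in control libraries. Here knockout replicate 4 overlapped with control replicate 9, and the log2 fold change was -0.23 (SE 0.18, adjusted p = 0.391). Cdc6, the ATPase that helps load the helicase, averaged 28.9 ± 7.37 FPKM in knockout and 42.4 ± 3.60 FPKM in control cells (SD, n = 3 each), with no overlap and an adjusted p of 0.144.

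All 6 subunits of the MCM ring, the core of the replicative helicase, had lower means in knockout cells, and none passed the threshold. Mcm4 was at 45.9, 18.5 and 44.7 FPKM in knockout and at 74.4, 82.7 and 60.3 FPKM in control libraries (log2 fold change -1.07, SE 0.34, adjusted p = 0.103). Knockout replicate 4 stood well below the other 2 knockout libraries, which were themselves below every control. Without it the log2 fold change of Mcm4 was -0.65. Mcm7 was at 60.1, 48.2 and 57.4 FPKM in knockout and at 92.1, 95.5 and 73.7 FPKM in control libraries. Its log2 fold change was -0.64 (SE 0.19, adjusted p = 0.0909). Of the exon bases of Mcm7, 12.6% are shared with other genes, the largest part (7.25%) with Ap4m1 on the opposite strand. Mcm3 had the smallest difference, at 96.1, 102 and 77.3 FPKM in knockout and 132, 115 and 86.5 FPKM in control libraries, where the groups overlapped (log2 fold change -0.27, adjusted p = 0.430). Mcm6 was at 175, 112 and 171 FPKM in knockout and at 254, 261 and 201 FPKM in control libraries, with no overlap and a log2 fold change of -0.66 (adjusted p = 0.123). Mcm5 also had no overlap, at -0.54. For Mcm2, at -0.56, knockout replicate 1 reached 118 FPKM against 117 FPKM in control replicate 9.

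The order of the subunits by mean FPKM, a level per transcript length, was the same in both groups. Mcm6 was highest (153 ± 35.3 FPKM in knockout, 239 ± 33.0 FPKM in control), followed by Mcm2, Mcm3, Mcm5, Mcm7 and Mcm4 (36.4 ± 15.5 FPKM in knockout, 72.5 ± 11.3 FPKM in control; SD, n = 3 each). Neighbours in the middle of that order did not differ beyond their spread: Mcm2 averaged 93.5 ± 27.1 and Mcm3 91.7 ± 12.7 FPKM in knockout cells. Mcm4 relative to Mcm6 was 0.262, 0.165 and 0.261 in knockout and 0.293, 0.316 and 0.300 in control libraries, so the groups did not overlap. Mcm7 relative to Mcm6 was 0.343, 0.430 and 0.336 in knockout and 0.363, 0.365 and 0.367 in control libraries, with overlap. Both ratios were chosen after their values were seen and were not tested.

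Among genes that switch the helicase on, the 4 measured members were lower in mean. Gins3, a subunit of the GINS complex, was at 9.60, 6.22 and 8.55 FPKM in knockout and at 13.3, 13.2 and 11.3 FPKM in control libraries, with no overlap (log2 fold change -0.59, SE 0.22, adjusted p = 0.139). Cdc45, the partner of GINS and MCM in the active helicase, was at 31.1, 40.3 and 31.9 FPKM in knockout and at 44.2, 41.5 and 28.9 FPKM in control libraries. Its lowest library was a control, and the log2 fold change of -0.13 had a 95% interval from -0.64 to 0.37. Gins1 and Mcm10, an activator of the helicase, had log2 fold changes of -0.27 and -0.43, and their groups overlapped.

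In all 4 polymerase and primase genes, every knockout library lay below every control library, which held for 21.8% of all tested genes. Pola1, the catalytic subunit of the polymerase that starts each new strand, was at 7.08, 3.46 and 8.68 FPKM in knockout and at 16.8, 19.3 and 11.9 FPKM in control libraries. The mean was 6.41 ± 2.67 FPKM in knockout and 16.0 ± 3.79 FPKM in control cells (SD, n = 3 each; log2 fold change -1.25, SE 0.33, adjusted p = 0.0790). Prim1, the primase subunit that works in the same complex, was at 27.1, 29.7 and 27.97 FPKM in knockout and at 37.6, 40.3 and 31.8 FPKM in control libraries (log2 fold change -0.35, SE 0.18, adjusted p = 0.228). Pola1 relative to Prim1 was thus 0.261, 0.117 and 0.310 in knockout and 0.447, 0.480 and 0.374 in control libraries, a ratio chosen after its values were seen. The groups did not overlap in that ratio. After correction for transcript length and GC content, the log2 fold changes were closer together, at -0.90 for Pola1 and -0.53 for Prim1. Pold1 and Pole, the catalytic subunits of the polymerases for the lagging and leading strands, had log2 fold changes of -0.45 and -0.36 (adjusted p = 0.174 and 0.280).

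Genes of the sliding clamp, its loader and Okazaki fragment processing had the role group median nearest to 0, at -0.22 on the log2 scale over 7 genes. Pcna, the clamp that holds polymerases on DNA, was at 117, 123 and 95.9 FPKM in knockout and at 113, 122 and 115 FPKM in control libraries. The groups overlapped, and the log2 fold change of -0.07 had a 95% interval from -0.47 to 0.33. Rfc4, a subunit of the clamp loader, was at 68.2, 83.0 and 56.4 FPKM in knockout and at 72.2, 59.1 and 53.7 FPKM in control libraries (log2 fold change 0.16, adjusted p = 0.636), and turned to -0.045 with libraries scaled to equal totals and to -0.093 after correction for transcript length and GC content. Rfc2, another subunit of the clamp loader, was at 152, 165 and 133 FPKM in knockout and at 142, 137 and 135 FPKM in control libraries. The groups overlapped, and the log2 fold change of 0.12 turned to -0.087 with equal totals and to -0.033 with quantile normalization, while it was 0.18 with median-ratio scaling and 0.31 after the length and GC correction. Rfc3 and Rfc5 were at -0.33 and -0.36 with no overlap, so members of the same loader had opposite signs in the values as deposited. Of the exon bases, 15.1% in Rfc2, 12.7% in Rfc4 and 10.7% in Rfc5 are shared with opposite-strand genes, Lat2, Eif4a2 and Wsb2, and none in Rfc3. Lat2 was at 172, 203 and 189 FPKM in knockout and at 204, 152 and 145 FPKM in control libraries, as high as Rfc2, so the sign contrast is uncertain too. Eif4a2 had the opposite sign to Rfc4. It was at 74.7, 52.8 and 74.5 FPKM in knockout and at 112, 133 and 92.5 FPKM in control libraries (log2 fold change -0.73, adjusted p = 0.0948). The part of shared bases in these values was not tested. Fen1, the nuclease that trims Okazaki fragments, was at 131, 103 and 105 FPKM in knockout and at 179, 148 and 141 FPKM in control libraries, with no overlap (log2 fold change -0.46, SE 0.19, adjusted p = 0.160). Of its exon bases, 84.2% are shared with genes annotated on the opposite strand, and no source used here says whether strand was used in counting, so the value for Fen1 is uncertain. The DNA ligase gene Lig1 overlapped between groups (log2 fold change -0.22).

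Among genes of nucleotide supply, the large and small subunits of ribonucleotide reductase, the enzyme that makes deoxynucleotides, were both lower in mean. Rrm1 was at 91.6, 73.1 and 94.2 FPKM in knockout and at 166, 166 and 133 FPKM in control libraries. Every knockout library lay below every control library, at a log2 fold change of -0.84 (adjusted p = 0.0626, SE 0.19). Rrm2, the small subunit and the member with the highest level, was at 519, 266 and 257 FPKM in knockout and at 378, 370 and 457 FPKM in control libraries. Knockout replicate 1 held the highest of all 6 values and the other 2 knockout libraries the lowest, so the groups overlapped (log2 fold change -0.28, 95% interval -0.95 to 0.38, adjusted p = 0.536). The value was -0.61 without knockout replicate 1 and -0.10 without knockout replicate 5. Rrm1 relative to Rrm2, chosen after its values were seen, was 0.177, 0.274 and 0.367 in knockout and 0.438, 0.448 and 0.292 in control libraries, with overlap. Thymidine kinase Tk1 averaged 33.7 ± 1.70 FPKM in knockout and 48.3 ± 8.35 FPKM in control cells (SD, n = 3 each; adjusted p = 0.146) with no overlap. After the length and GC correction, its log2 fold change was -0.88 (limma, adjusted p = 0.0605, beside 0.0615 for Ccne2). Ung, which removes uracil from DNA, had a log2 fold change of -0.42, also with no overlap. Tyms, which makes thymidylate, and Dut, which breaks down dUTP, overlapped between the groups at -0.10 and 0.18. Tyms turned to 0.028 after the length and GC correction. Dut was at 104, 138 and 86.5 FPKM in knockout and at 94.4, 104 and 86.0 FPKM in control libraries, and its fold change turned to -0.020 with equal totals.

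Of the chromatin genes, 3 of 4 had every knockout library below every control library, against 21.8% of all tested genes. Slbp, which binds the stem-loop of histone mRNA, was at 107, 61.0 and 90.7 FPKM in knockout and at 127, 130 and 125 FPKM in control libraries. The controls lay close together and the knockout libraries were spread (log2 fold change -0.59, SE 0.23, adjusted p = 0.140). Uhrf1, which guides maintenance DNA methylation, was at a log2 fold change of -0.57 (adjusted p = 0.118, SE 0.20). Chaf1a, the large subunit of the histone chaperone CAF-1, was at 13.6, 9.69 and 9.24 FPKM in knockout and at 18.1, 19.0 and 14.9 FPKM in control libraries (log2 fold change -0.64, SE 0.22, adjusted p = 0.121). Of its exon bases 52.5% are shared with Ubxn6 on the opposite strand, which was at 13.7, 18.8 and 17.3 FPKM in knockout and at 14.4, 12.9 and 15.3 FPKM in control libraries, so the level of Chaf1a is uncertain. Its partner Chaf1b was at 50.5, 48.0 and 39.5 FPKM in knockout and at 41.4, 44.9 and 43.98 FPKM in control libraries, where the groups overlapped; its log2 fold change of 0.07 turned to -0.13 with equal totals and to -0.14 after the length and GC correction.

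Ccne2, which encodes cyclin E2, fell. It was at 20.8, 11.0 and 17.8 FPKM in knockout and at 47.3, 40.6 and 48.0 FPKM in control libraries. The knockout mean of 16.5 ± 5.02 FPKM was 36.5% of the control mean of 45.3 ± 4.11 FPKM (SD, n = 3 each; log2 fold change -1.44, SE 0.25, 95% interval -2.01 to -0.87, adjusted p = 0.0353). Every knockout library was below every control library. The call was lost when any single library was left out (adjusted p from 0.0515 to 0.123, with fewer samples, at log2 fold changes from -1.62 to -1.19), after correction for length and GC content (log2 fold change -1.05, adjusted p = 0.0615), and with no filter on low genes (log2 fold change -1.44, adjusted p = 0.104). Of its exon bases, 17.4% are shared with Ints8 on the opposite strand, which was at 3.86, 7.15 and 2.04 FPKM in knockout and at 3.44, 3.90 and 1.91 FPKM in control libraries, below Ccne2 in each library.

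The gene lies on chromosome 4 (11191351 to 11204779, GRCm38). Of 12 other tested genes within 1 Mb, 11 had lower values in knockout cells, with a median log2 fold change of -0.42. Over all tested genes, 54% were lower and the median was -0.06. Such neighbour medians around other members ran from -0.74 (Rfc3, 2 genes) to 0.40 (Rfc5, 7 genes). They were -0.46 around Mcm6 and -0.42 around Mcm4 (8 genes each). Among the neighbours of Ccne2, named after their values were seen, Trp53inp1 fell (log2 fold change -1.09, adjusted p = 0.0477) and the DNA repair gene Rad54b was at -1.23 (adjusted p = 0.0832). The part of the region in the fall of Ccne2 was not tested.

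Ccne1, which encodes the other E-type cyclin, was at 43.6, 36.4 and 26.8 FPKM in knockout and at 55.0, 47.2 and 43.4 FPKM in control libraries. Knockout replicate 1 and control replicate 9 overlapped narrowly (log2 fold change -0.46, SE 0.22, adjusted p = 0.209). Within a library, Ccne2 relative to Ccne1 was 0.478, 0.303 and 0.665 in knockout and 0.861, 0.859 and 1.11 in control libraries. The ratio was lower in knockout cells by 1.03 on the log2 scale (mean difference -1.03) with no overlap. Its p of 0.1 (exact permutation test, two-sided) is the smallest that 3 against 3 libraries allow. The change of Ccne2 was known from an earlier result when this ratio was chosen, so the p adds no separate support. After correction for length and GC content, the log2 fold changes were -1.05 for Ccne2 and -0.63 for Ccne1. They lay closer together than as deposited, so the size of the ratio's difference depends on that correction.

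The E2F genes themselves differed among each other. E2f8, a repressor made in S phase as an E2F target, was at 12.1, 6.96 and 10.4 FPKM in knockout and at 22.5, 17.4 and 20.6 FPKM in control libraries, with no overlap. Its knockout mean was 48.6% of the control mean (log2 fold change -0.99, SE 0.24, adjusted p = 0.0692). Of the exon bases of E2f8, 11.2% are shared with Gm2788 on the opposite strand. E2f1, the activator, was at 5.97, 5.78 and 4.31 FPKM in knockout and at 4.18, 4.97 and 6.94 FPKM in control libraries, fully mixed between groups (log2 fold change 0.01, 95% interval -0.54 to 0.56); its sign turned under 6 other settings. E2f8 relative to E2f1 was 2.02, 1.204 and 2.40 in knockout and 5.38, 3.49 and 2.97 in control libraries. The ratio was lower in every knockout library (mean log2 difference -1.09, exact two-sided permutation p = 0.1, again the smallest possible). E2f8 was picked with its values in view, so this p adds no separate support. After correction for length and GC content, the log2 fold changes were -0.84 for E2f8 and -0.10 for E2f1, closer together than as deposited. E2f2, another activator, did not pass the filter for testing. It was at 0.956, 0.225 and 0.434 FPKM in knockout and at 0.171, 0.418 and 1.65 FPKM in control libraries, so the groups overlapped.

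**Figure D3:**
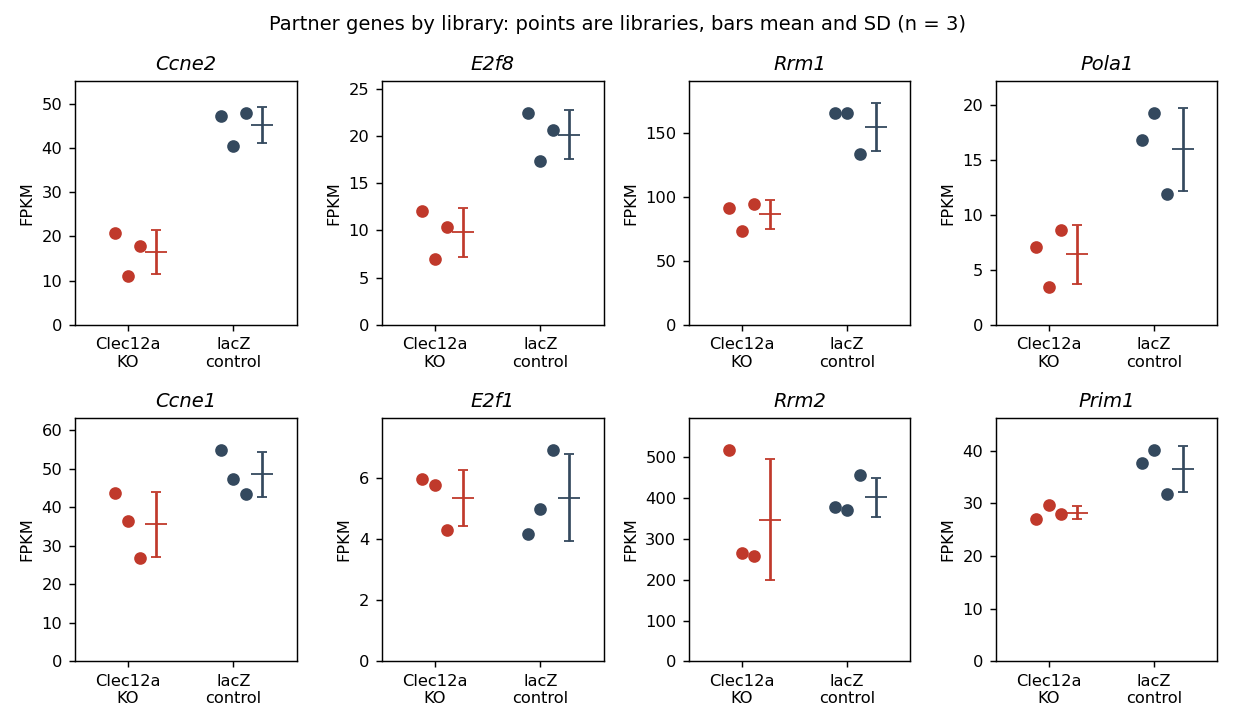
FPKM of 4 partner pairs in each library (points), with mean and SD to the right (n = 3 each); knockout is left in every panel and the pairs stand above each other. Ccne2, E2f8, Rrm1 and Pola1 in the top row show no overlap between groups, while Ccne1, E2f1 and Rrm2 below them overlap and Prim1 does not.

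Transcript length went with the fold change in these libraries as a whole. Over 9820 tested genes with a known length, Spearman's rho between length and log2 fold change was -0.42, and over the 38 members it was -0.45, where genes share libraries and are not independent. Split at the members' median length of 2984 bases, the 19 shorter members had a median log2 fold change of -0.33, against 0.14 for all tested genes up to that length. The 19 longer members had a median of -0.56, against -0.26 for all longer genes. After each library was corrected for transcript length and GC content, the median was -0.50 over the members and -0.08 over all genes. Then 35 of 38 members had lower values, and for 24 of 38 every knockout library lay below every control library, against 20.9% of all genes.

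**Figure D4:**
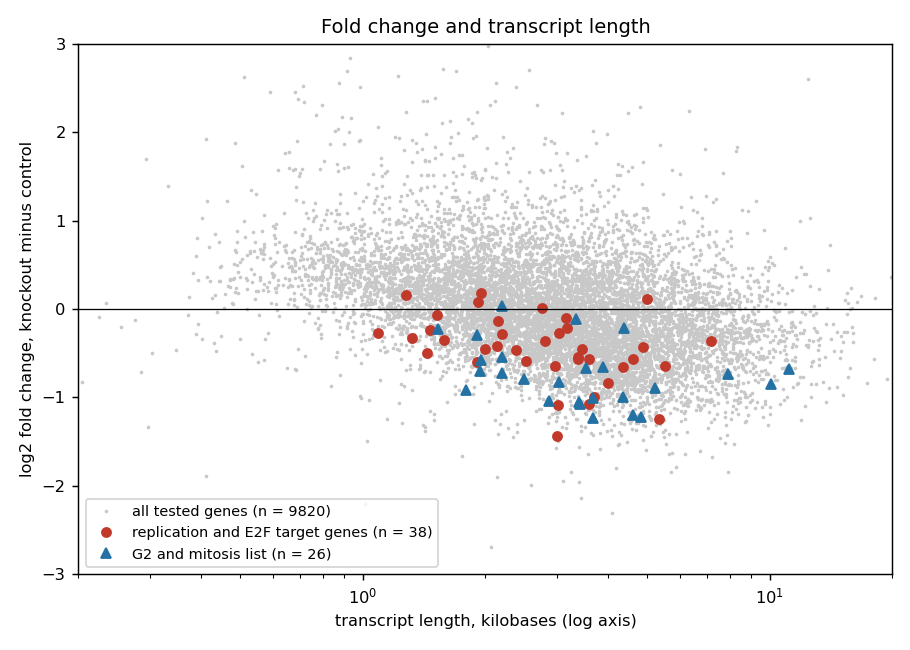
Log2 fold change (knockout minus control) against transcript length in kilobases (log axis) for all tested genes (grey), the 38 members (circles) and 26 G2 and mitosis genes (triangles); 25 grey genes lie outside the axes. Grey points drift down to the right, and most circles and triangles lie in the lower part of the grey cloud at their length.

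Replication genes outside the members had the same sign more often than not. Of 45 further genes of the replication machinery, none passed the test; at an unadjusted p under 0.05 (limma), 13 were lower and 1 higher, against 15.9% and 12% of all tested genes. By sign 35 were lower and 10 higher, with a median log2 fold change of -0.30, and for 21 of 45 (46.7%) every knockout library lay below every control library, against 21.8% of all tested genes. For 2 genes, Pold4 and Rrm2b, every knockout library lay above, which held for 14.5% of all tested genes. Dnmt1, the maintenance DNA methyltransferase that works with Uhrf1, was at 24.8, 12.3 and 27.6 FPKM in knockout and at 61.0, 57.8 and 49.7 FPKM in control libraries. That is 3 low values against 3 high ones with no overlap, and the log2 fold change of -1.41 (SE 0.29) just missed the threshold (adjusted p = 0.0513). Cdc7, the kinase that phosphorylates the MCM ring, was at a log2 fold change of -1.22 (adjusted p = 0.0710, SE 0.30). Pold4, a small subunit of the polymerase whose catalytic subunit is Pold1, went the other way: it was picked with its values in view and had 80.6, 101 and 59.7 FPKM in knockout and 28.5, 36.2 and 47.0 FPKM in control libraries (log2 fold change 1.09, adjusted p = 0.0662).

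Of 25 genes of E2F, RB and cyclin-dependent kinase control, 23 were tested and none passed; at an unadjusted p under 0.05 (limma), 6 were lower and none higher, against 15.9% and 12% of all tested genes. The median log2 fold change was -0.45, with 18 lower and 5 higher. Skp2, an F-box protein of the ubiquitin ligase that degrades the inhibitor p27, was at 4.19, 4.03 and 6.18 FPKM in knockout and at 18.3, 11.3 and 7.67 FPKM in control libraries, with no overlap (log2 fold change -1.15, adjusted p = 0.0835). Rbl1, which encodes the RB relative p107, had a log2 fold change of -0.95 (adjusted p = 0.104). The kinase inhibitor gene Cdkn1a, picked with its values in view, was at 155, 142 and 102 FPKM in knockout and at 70.3, 84.2 and 166 FPKM in control libraries, and the groups overlapped (log2 fold change 0.39, adjusted p = 0.435).

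Genes of G2 and mitosis, which act after replication, had a lower median in the same libraries. Of 26 tested, 2 fell, the mitotic kinesins Kif20a and Kif23, and 24 did not pass. Kif20a was at 43.6, 24.2 and 39.99 FPKM in knockout and at 83.0, 91.5 and 75.8 FPKM in control libraries (log2 fold change -1.23, adjusted p = 0.0465). Kif23 was at 20.3, 17.3 and 18.4 FPKM in knockout and at 33.2, 49.6 and 37.8 FPKM in control libraries (log2 fold change -1.05, adjusted p = 0.0467), and neither gene overlapped between groups. The median log2 fold change of the list was -0.76, beside -0.44 for the replication and E2F target genes. For 22 of 26 (84.6%) every knockout library lay below every control library. That held for 22 of 38 replication and E2F target genes (57.9%) and for 21.8% of all tested genes. The difference between the lists was not tested. In knockout replicate 4 the median deviation from the gene means was -0.51 for G2 and mitosis genes and -0.63 for the MCM genes, but 0.11 for the clamp, clamp loader and Okazaki genes.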

How the data were processed

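RNA-seq of 3 Clec12a knockout and 3 lacZ control libraries was used, grouped by the treatment label. The authors deposited one FPKM value per gene and library. The submitters' processing notes name FastQC, STAR 2.5.2b and mm10; how reads were counted, on which annotation, strand and filters, was not given. FPKM is relative to a library's total, so a change in abundant genes or in RNA integrity shifts many other genes.

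Genes at 1 FPKM or more in at least 3 libraries (9830) were tested on log2(FPKM + 1) with limma 3.58.1 in R 4.3.3 (intensity trend, two-sided, Benjamini-Hochberg over all genes, threshold 0.05). The test was also run on simulated data, with the outcome not given here. Depth was estimated from genes with 1 transcript, as the depth that brought low values nearest to whole fragments. Chance gives 20% within 0.1 of a whole fragment only at a depth fixed beforehand. At the chosen depths, between 58.9% and 69.6% of low values came that close. Fragment numbers could thus not be restored, and no count model was used. Gene models came from GENCODE (GRCm38; 21414 matched by symbol, 75 by synonym) and promoters from RefSeq.

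The members, roles and lists were chosen with earlier results of these data known. Values are given for each role group's lowest and highest fold change, called members, the 3 highest in level and the untested one, and for other lists called genes or else the 2 largest changes. Mcm7, Pcna, Slbp, Ccne1 and E2f8 were added with their values in view. Alternatives were a pseudocount of 0.1, no filter, a minimum mean of 5 FPKM, 3 other scalings, no trend, a length and GC correction (splines, 4 degrees of freedom), an adjusted p under 0.1 and leaving out each library. No label says whether libraries of a group came from separate cultures or clones, so p-values reflect only how these libraries spread, which may be technical.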

Additional observations from a re-analysis of the deposited data

How the results depend on the processing

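No paired analysis was possible because the groups share no replicate number. The 1 member called became 0 without the filter and 0 with values corrected for length and GC content, 2 with quantile normalization (Ccne2 and Rrm1), 5 at an adjusted p under 0.1 (Ccne2, Rrm1, E2f8, Pola1 and Mcm7), and 0 whichever library was left out (limma; 17 at an unadjusted p under 0.05 with all libraries). Over all genes, 187 calls became 23 without the filter, 97 with a minimum mean of 5 FPKM, 120 with equal totals (71 higher and 49 lower, against 136 and 51), 1106 at an adjusted p under 0.1, and 20 to 197 when a library was left out. The members' median of -0.44 ran from -0.53 to -0.34 when a library was left out and was -0.64 with equal totals, which moved the median of all genes from -0.06 to -0.24 and put all 38 members lower. Relative to the median of all genes it was -0.38 as deposited and -0.40 with equal totals. Signs turned to lower for E2f1 (-0.16 with equal totals, -0.10 after the length and GC correction, and from -0.13 to 0.18 when a library was left out, being below 0 without knockout replicate 1 or 4 or control replicate 6 or 8), Rfc2 (-0.087 with equal totals, -0.033 with quantiles), Rfc4 (-0.045 with equal totals, -0.093 with length and GC), Chaf1b (-0.13 and -0.14 likewise) and Dut (-0.020 with equal totals). The cause was not tested. Tyms turned to higher (0.028 after the length and GC correction). With a library left out, Mcm4 lay between -1.29 and -0.65, Rrm2 between -0.61 and -0.10, Mcm3 between -0.44 and -0.13 and Cdc45 between -0.32 and -0.017. The 22 members with no overlap (21.8% of all genes) were 30 with equal totals (31.6%), 24 after the length and GC correction (20.9%) and 23 with median-ratio scaling (18.9%), settings added after seeing the data. Leaving out control replicate 9 gave 29 (31.4%), knockout replicate 1 gave 26 (27.05%), knockout replicate 4 gave 25 (24.9%), and each other library 22 (24.2% to 27.6%). Every knockout library lay above for 2 members without knockout replicate 5, and for 1 each with median-ratio scaling and the length and GC correction. The log2 ratio of Ccne2 to Ccne1 ran from -1.30 to -0.73 and that of E2f8 to E2f1 from -1.29 to -0.80 when a library was left out.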
